A study of Mus musculus with 6 samples.

Results

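The cell cycle and DNA replication genes described here are a list of 45 genes, chosen by name and grouped by role, of which 43 were measured among 19938 genes on the same arrays. Each gene was read from the probe set that carries 1 gene symbol and, where a gene has several, has the highest mean over the 6 arrays. Ccnb1 and Cdkn1a had no such probe set and are not analysed here. The cells came from mouse primary bone marrow that was dissociated and sorted by flow cytometry, straight into lysis buffer. Both populations lacked CD45, the pan-leukocyte surface protein, and Ter119, a protein of red cell precursors, and both carried CD73, an ectoenzyme that releases adenosine from AMP. They differed in CD105 (endoglin, an accessory receptor of the TGF-beta superfamily): CD73+CD105+ cells (n = 3 arrays) were set against CD73+CD105- cells (n = 3 arrays). No strain, age or treatment of the mice is given in the sources used here. The sample titles call the replicates biological, but no label says whether they are different mice. A p-value here thus rests on sample-to-sample spread that may not be spread between mice.

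A dividing cell passes through a gap phase, S phase, in which DNA is copied, a further gap phase and mitosis. Cyclins bind and switch on cyclin-dependent kinases (CDKs), CDK inhibitors hold these kinases in check, and the retinoblastoma family (pocket proteins) keeps E2F transcription factors silent until G1 kinases phosphorylate it. Genes of DNA replication are typical E2F targets, while genes of mitosis are held down in resting cells by the DREAM complex, which contains a pocket protein, and are switched on later with the help of Foxm1. In marrow stroma most reticular cells and vessel cells of adult animals are thought to cycle rarely, whereas the columnar chondrocytes of the growth plate divide.

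Promoters are shown for the 4 genes with the lowest differences between the populations among those of mitosis, the A and B cyclins and Cdk1 whose promoter window held either a CHR or a CCAAT element, the elements through which mitotic promoters are known to be controlled. The CHR (cell cycle genes homology region) was searched as TTTGAA and the CCAAT box as CCAAT, each on both strands, and capitals mark every match, so that a match on the opposite strand reads TTCAAA or ATTGG. Each stretch is the 150 bases before the annotated start, 5′ to 3′ along the gene, from RefSeq on build GRCm38.p6.
Bub1b (chr2:118598061-118598210, plus strand): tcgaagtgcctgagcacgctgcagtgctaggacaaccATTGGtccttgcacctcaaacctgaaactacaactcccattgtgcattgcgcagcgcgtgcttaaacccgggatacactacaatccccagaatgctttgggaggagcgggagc
Cdc20 (chr4:118437344-118437493, minus strand): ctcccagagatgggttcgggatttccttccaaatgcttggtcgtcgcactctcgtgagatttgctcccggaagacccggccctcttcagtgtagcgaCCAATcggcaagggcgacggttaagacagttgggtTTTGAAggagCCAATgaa
Bub1 (chr2:127831860-127832009, minus strand): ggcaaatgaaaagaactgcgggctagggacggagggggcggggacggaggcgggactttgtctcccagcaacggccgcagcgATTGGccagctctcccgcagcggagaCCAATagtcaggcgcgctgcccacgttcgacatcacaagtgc
Top2a (chr11:99024190-99024339, minus strand): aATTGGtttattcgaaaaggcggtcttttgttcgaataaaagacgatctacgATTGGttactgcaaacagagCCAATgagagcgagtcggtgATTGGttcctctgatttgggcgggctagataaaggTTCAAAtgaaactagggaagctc

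The Cdc20 stretch held a CHR beginning 18 bases before the start between CCAAT boxes beginning 53 and 8 bases before it. Top2a held 4 CCAAT boxes in the stretch and a CHR on the opposite strand beginning 23 bases before the start. Bub1b held a CCAAT box 113 bases before the start, and its CHR lay 40 bases after the start, outside the stretch. The Bub1 window held a pair of CCAAT boxes and no TTTGAA. RefSeq windows of 250 bases before to 50 bases after the start were at hand for 36 of the 45 genes. Among the 11 windows of mitosis genes, 8 held a CHR (72.7%) and 10 a CCAAT box (90.9%), where 17.9% and 37.4% of all 32851 windows did. An E2F-type motif, searched as TTTNNCGC on both strands, stood in 0 of these 11 windows and in 6 of 12 windows of S phase genes (50%), where 5.17% of all windows held it. The CCAAT box was nearly as frequent in the 12 S phase windows, in 10 of them (83.3%), while 2 held a CHR (16.7%). The Rbl1 window held a pair of E2F-type motifs beginning 18 and 8 bases before the start. These counts describe letters in a window and were not read as bound sites.

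No cell cycle gene differed past the threshold, but most lay lower in CD73+CD105+ cells. In limma, 0 of the 43 genes had a Benjamini-Hochberg adjusted p under 0.05 (two-sided, over all 19938 genes), where 1.82% of all genes passed, 1.35% higher and 0.466% lower. At an unadjusted p under 0.05 there were 14 of 43, 13 of them lower and 1 higher in CD73+CD105+ cells, against 9.09% of all genes lower and 8.58% higher. The difference, given throughout in log2 units as CD73+CD105+ minus CD73+CD105-, was below 0 in 31 of 43 genes (72.1%), and in 55.6% of all genes. Their median difference was -0.14, that of all genes -0.02. All 3 CD73+CD105+ arrays lay below all 3 CD73+CD105- arrays in 15 genes (34.9%) and above them in 3 (6.98%), where the shares over all genes were 12.9% and 10.7%. The adjusted p was under 0.1 for 6 genes, all lower in CD73+CD105+ cells: Top2a, Bub1b, Cenpf, Cdk6, Rbl1 and Cdc20. Under 15 other settings between 0 and 8 of the 43 genes passed, all lower, the 8 with array weights, which weigh the replicate 1 arrays most. A lower level in sorted cells can mean fewer cells in a cycle phase or less of the transcript in each, and these cannot be told apart.

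**Figure D1:**
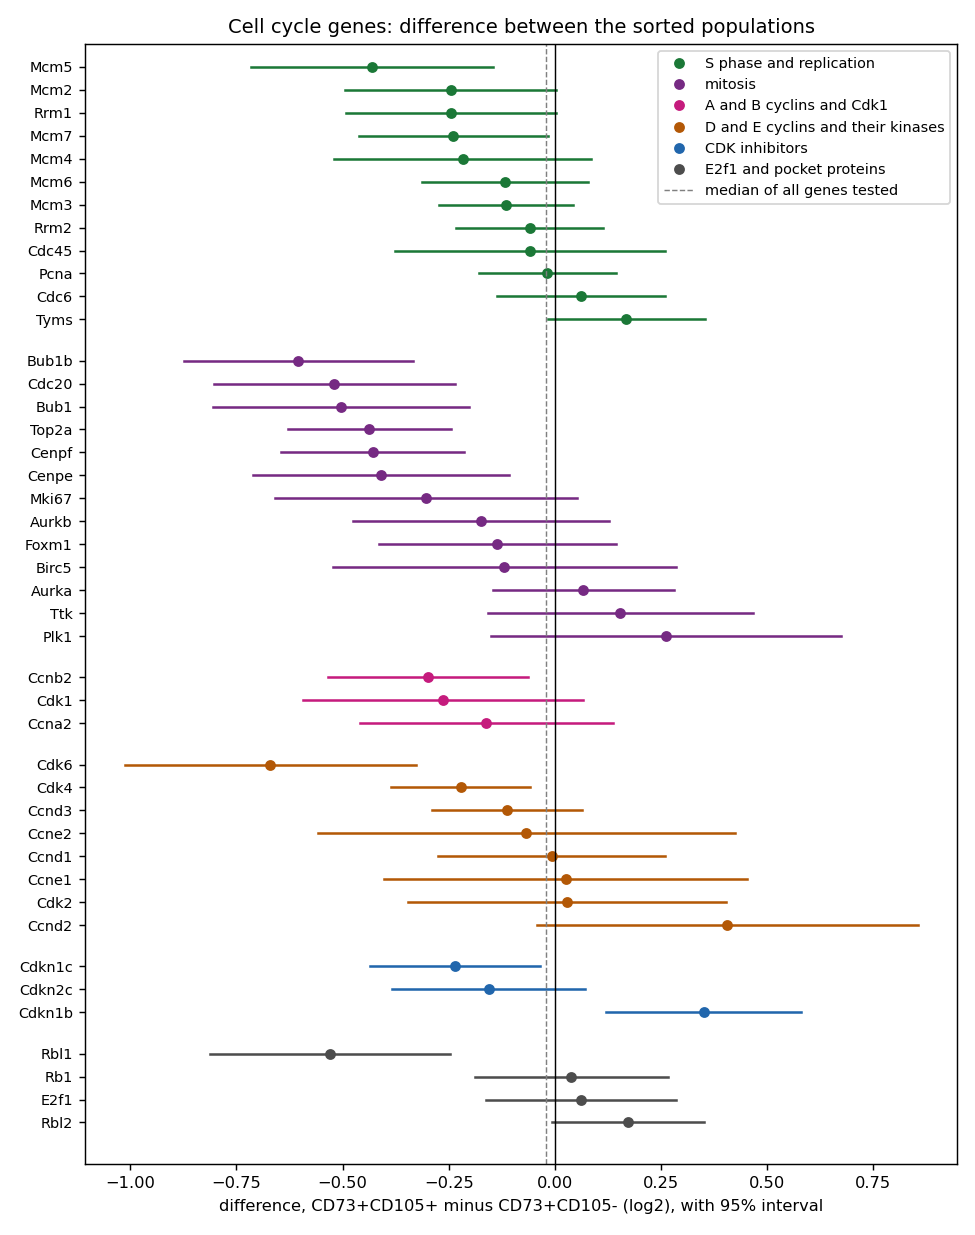
Differences of the 43 measured genes, CD73+CD105+ minus CD73+CD105- in log2 units, with 95% intervals from limma (horizontal axis), grouped by role and ordered within each role (vertical axis). Of the 43 intervals 13 lie wholly below 0, among them those of Bub1b, Cdc20, Top2a, Cdk6 and Rbl1, and that of Cdkn1b lies above it, and the dashed line is the median of all genes tested at -0.02.

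**Figure D2:**
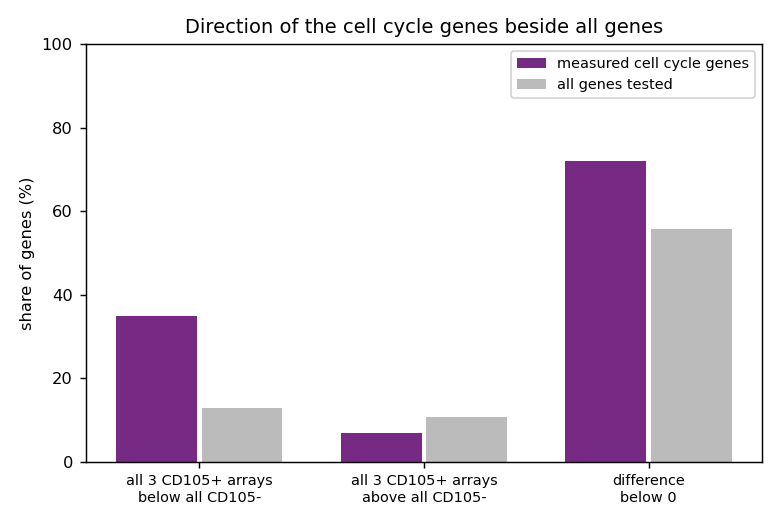
Share of genes in percent (vertical axis) for the 43 measured cell cycle genes beside all 19938 genes. The groups of arrays were separated downwards in 34.9% of the cell cycle genes and 12.9% of all genes, and upwards in 6.98% and 10.7%.

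The populations were as sorted by transcript: Eng, which encodes CD105, averaged 8.06 ± 0.25 in CD73+CD105+ cells, against 6.30 ± 0.21 in CD73+CD105- cells (SD, n = 3 each; limma adjusted p = 0.0032). Array medians lay between 6.27 and 6.35. The arrays labelled replicate 1 stood apart from the rest in 1 respect, since their deviations from the group means ran opposite to each other (r = -0.883 across genes, which are not independent; 0.00659 and 0.104 for replicates 2 and 3). The average of these 2 arrays was thus near that of the remaining 4 for most genes (SD of the gap 0.0423, and at least 0.122 for the 8 other pairs of arrays), and no label describes such a step. Of 8 endothelial markers 8 were higher in CD73+CD105+ cells, with an array mean of 7.97 to 8.29 against 5.65 to 5.99 in CD73+CD105- cells. Of 6 markers of Lepr-expressing stroma, the reticular cells that make niche factors, 5 rose in CD73+CD105+ cells (median 1.10), Lepr among them (difference 0.93, limma adjusted p = 0.00869), and Foxc1 was at -0.17; the list's array means were 8.83 to 9.01 in CD73+CD105+ cells and 7.81 to 8.22 in CD73+CD105- cells. Chondrocyte markers were bright in both, at array means of 11.52 to 11.89 in CD73+CD105+ and 11.88 to 12.13 in CD73+CD105- cells. Of 8 leukocyte markers measured, 7 lay in both populations below 6.01, a background level set as the 95th percentile of 1190 odorant and vomeronasal receptor genes, which marrow is not thought to use. Of 43 cell cycle genes, 42 lay above that level in both populations and 1, the licensing factor gene Cdc6, below it in both.

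Genes of mitosis had a median of -0.30 over 13 genes, of which 10 lay below 0 (76.9%), 0 passed and 6 were separated downwards. Over all genes 55.6% lay below 0 and 12.9% were separated downwards. The median of the mitosis genes was -0.11, -0.283 and -0.285 between the arrays labelled replicate 1, 2 and 3. With replicates 2 and 3 averaged per gene it was -0.42. Without CD73+CD105- replicate 2 it was -0.15.

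Bub1b encodes BubR1, a kinase-like protein of the spindle checkpoint that holds back anaphase. Its level was 7.15, 7.27 and 6.95 in CD73+CD105+ replicates 1, 2 and 3, against 7.58, 7.89 and 7.70 in CD73+CD105- replicates 1, 2 and 3. The groups did not overlap, and the mean was 1.52-fold lower in CD73+CD105+ cells (difference -0.60, SE 0.11, limma adjusted p = 0.0522). Its partner Bub1, a checkpoint kinase of the kinetochore, stood at 6.86, 7.31 and 7.18 in CD73+CD105+ arrays, against 7.54, 7.76 and 7.56 in CD73+CD105- arrays. CD73+CD105+ replicate 1 was the lowest array, and the difference of -0.50 (SE 0.13) did not pass (limma adjusted p = 0.107).

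Cdc20 activates the anaphase-promoting complex, which the checkpoint proteins restrain. It had levels of 7.92, 8.02 and 7.63 in CD73+CD105+ arrays and 8.31, 8.29 and 8.53 in CD73+CD105- arrays. Replicate 3 was the lowest CD73+CD105+ and the highest CD73+CD105- array, and the difference was -0.52 (SE 0.12, limma adjusted p = 0.0873).

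Top2a, the topoisomerase that untangles sister DNA before they part, came closest to the threshold. It was measured at 9.28, 9.43 and 9.40 in CD73+CD105+ arrays, against 9.70, 9.91 and 9.82 in CD73+CD105- arrays. The difference was -0.44 (SE 0.08, 95% interval -0.63 to -0.25, limma adjusted p = 0.0503), and the groups did not overlap. Over 15 other settings its adjusted p ranged over 0.0239 to 0.451, and it passed in 4 of them. A second Top2a probe set, far dimmer at a mean of 5.28 in CD73+CD105+ cells, against 5.23 in CD73+CD105- cells, differed by 0.05 with overlapping groups, so the gene's probe sets disagree in sign. Both of its means were under the receptor gene level.

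The kinetochore genes Cenpf and Cenpe, the second a motor that moves chromosomes to the spindle equator, were lower in all 3 CD73+CD105+ arrays. Cenpf had levels of 7.63, 7.78 and 7.68 in CD73+CD105+ arrays, against 8.06, 8.02 and 8.28 in CD73+CD105- arrays (difference -0.43, SE 0.09, limma adjusted p = 0.0709). Cenpe had 7.66, 7.66 and 7.53 against 7.77, 8.27 and 8.04 in the same order (difference -0.41, SE 0.13, limma adjusted p = 0.164). Mki67, the usual marker of cycling cells, was at 8.06, 7.79 and 7.89 in CD73+CD105+ arrays, against 7.94, 8.53 and 8.18 in CD73+CD105- arrays. Its groups overlapped, with CD73+CD105- replicate 1 below CD73+CD105+ replicate 1, and the mean difference was -0.30 (SE 0.15, limma adjusted p = 0.351). It was -0.51 in replicates 2 and 3 alone and -0.15 without CD73+CD105- replicate 2.

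The mitotic kinases lay on either side of 0. Plk1, a kinase of spindle assembly, averaged 7.27 ± 0.21 in CD73+CD105+ cells, against 7.01 ± 0.32 in CD73+CD105- cells (SD, n = 3 each), a difference of 0.26 that did not pass. The checkpoint kinase gene Ttk differed by 0.15 and Aurka, a kinase of spindle poles, by 0.07, which took either sign across settings. Aurkb and Birc5, the kinase and survivin subunits of the chromosomal passenger complex, differed by -0.17 and -0.12, and Foxm1, the transcription factor of mitotic genes, by -0.14. The groups overlapped in these 6 genes, and their limma adjusted p lay between 0.489 and 0.769.

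**Figure D3:**
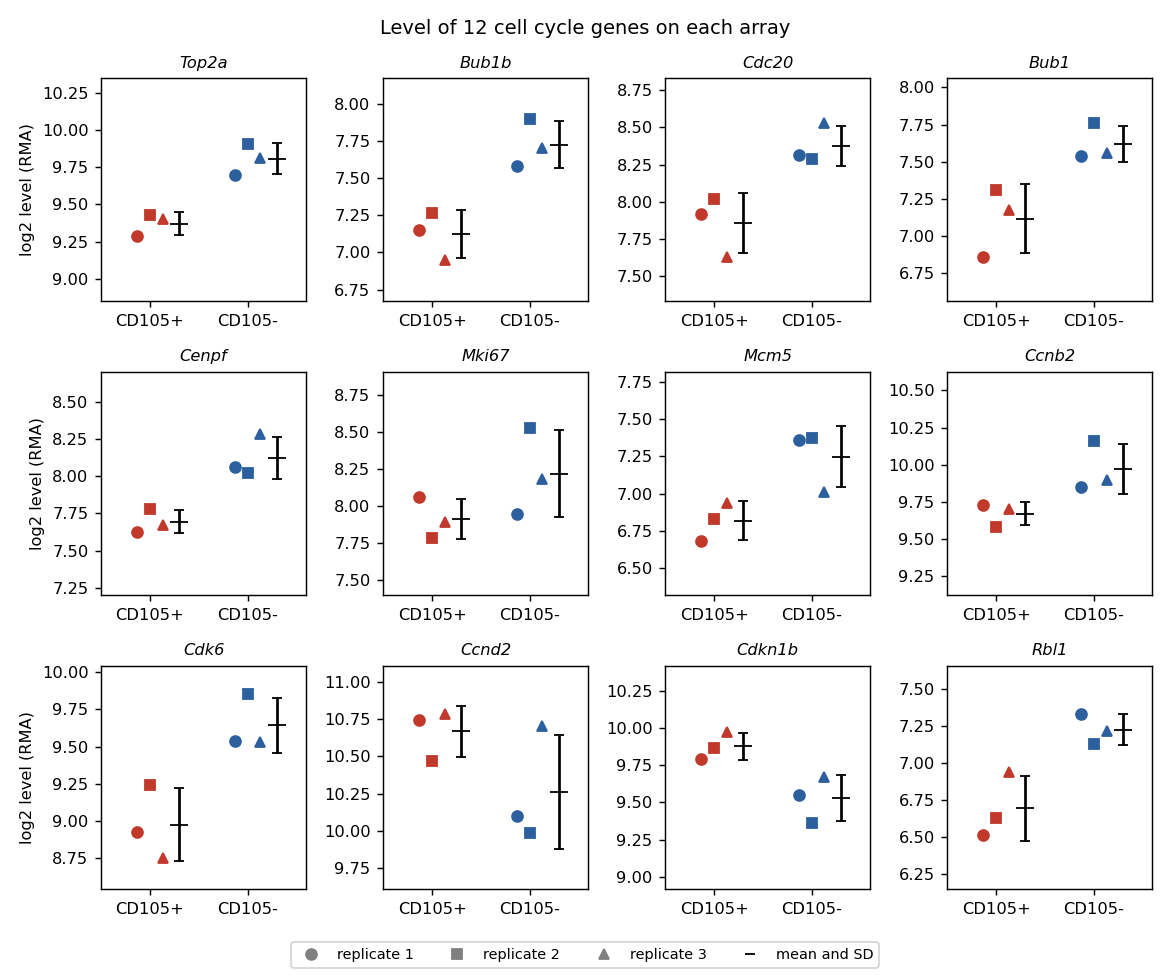
Level of 12 cell cycle genes on each array (vertical axis, RMA log2 values), CD73+CD105+ left of CD73+CD105-, each symbol a replicate and the bar the mean with its SD (n = 3). All panels span the same height of 1.5 log2 units. The groups are separated for Top2a, Bub1b, Cdc20, Bub1, Cenpf, Mcm5, Ccnb2, Cdk6, Rbl1 and, upwards, Cdkn1b, and overlap for Mki67 and Ccnd2. The 12 genes were picked with earlier results of these data known. Over all 43 genes 34.9% were separated downwards and 6.98% upwards, where 12.9% and 10.7% of all genes tested were.

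Among the A and B cyclins and Cdk1, the kinase through which they drive mitosis, the 3 measured genes all lay below 0 and 0 passed. Ccnb2 was at 9.73, 9.58 and 9.70 in CD73+CD105+ arrays, against 9.85, 10.16 and 9.90 in CD73+CD105- arrays. Its groups did not overlap, and the difference was -0.30 (SE 0.10, limma adjusted p = 0.188). Cdk1 itself had levels of 8.08, 8.37 and 8.49 in CD73+CD105+ arrays against 8.61, 8.77 and 8.36 in CD73+CD105- arrays. CD73+CD105- replicate 3 lay within the CD73+CD105+ range, and the difference was -0.26 (SE 0.14, limma adjusted p = 0.381). Ccna2 stood at 8.21, 8.62 and 8.43 against 8.76, 8.48 and 8.51 in the same order. Its difference of -0.16 (SE 0.13) turned to 0.033 in replicates 2 and 3 alone.

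S phase and replication genes had a median of -0.12 over 12 genes, 10 of them below 0 (83.3%), 0 past the threshold and 4 separated downwards. The shares over all genes were 55.6% below 0 and 12.9% separated downwards. The median of the S phase and replication genes was 0.003, -0.15 and -0.07 between the arrays labelled replicate 1, 2 and 3. The 6 subunits of the MCM helicase, which unwinds DNA at replication forks, all lay below 0, between -0.43 for Mcm5 and -0.11 for Mcm3. Mcm5 had levels of 6.68, 6.83 and 6.94 in CD73+CD105+ arrays, against 7.36, 7.37 and 7.01 in CD73+CD105- arrays. CD73+CD105- replicate 3 lay close above the CD73+CD105+ arrays, and the difference did not pass (SE 0.12, limma adjusted p = 0.132). Mcm2 was at 7.18, 7.45 and 7.37 against 7.72, 7.59 and 7.42, with overlapping groups (difference -0.25, SE 0.11, limma adjusted p = 0.289). The differences of Mcm7, Mcm4 and Mcm6 were -0.24, -0.22 and -0.12.

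Genes that supply nucleotides differed in sign. Rrm1, the large subunit of ribonucleotide reductase, was at 8.80, 8.80 and 8.67 in CD73+CD105+ arrays, against 8.85, 9.21 and 8.94 in CD73+CD105- arrays (difference -0.24, SE 0.11, limma adjusted p = 0.289), whereas its cycle-regulated partner Rrm2 differed by -0.06. Tyms, thymidylate synthase, was the 1 gene of this role separated upwards, at 8.36 ± 0.08 in CD73+CD105+ cells, against 8.19 ± 0.09 in CD73+CD105- cells (SD, n = 3 each), a difference of 0.17 (SE 0.08, limma adjusted p = 0.322). Pcna, the sliding clamp of replication forks, differed by -0.02 (95% interval -0.18 to 0.14), and its other probe set gave the same difference to 2 decimals. Cdc45, a helicase cofactor, differed by -0.06 and Cdc6 by 0.06, both with overlapping groups.

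The D and E cyclins and their kinases, which carry cells through G1 into S phase, had a median of -0.04, with 5 of 8 below 0 and 0 past the threshold. The median was -0.11 without CD73+CD105+ replicate 1 and turned to 0.068 without CD73+CD105- replicate 2. Cdk6, a partner of D cyclins, had the difference furthest below 0 among the 43 genes. Its level was 8.93, 9.24 and 8.75 in CD73+CD105+ arrays against 9.54, 9.86 and 9.53 in CD73+CD105- arrays. The groups were apart, and CD73+CD105+ cells held 1.59-fold less (difference -0.67, SE 0.15, 95% interval -1.01 to -0.33, limma adjusted p = 0.0738). Over 15 other settings its difference ranged from -0.80 to -0.56 and its adjusted p over 0.0254 to 0.405, and it passed in 3 of them.

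Cdk4, the other kinase of D cyclins, was at 10.30, 10.21 and 10.25 in CD73+CD105+ arrays, against 10.41, 10.47 and 10.55 in CD73+CD105- arrays. The groups did not overlap (difference -0.22, SE 0.07, limma adjusted p = 0.166). Ccnd2 lay the other way, at 10.75, 10.47 and 10.79 in CD73+CD105+ arrays, against 10.10, 9.99 and 10.70 in CD73+CD105- arrays. CD73+CD105- replicate 3 lay within the CD73+CD105+ range, and the difference was 0.41 (SE 0.19, limma adjusted p = 0.326). Ccnd1 differed by -0.01 (95% interval -0.28 to 0.26) and Ccnd3 by -0.11. The cyclin E genes Ccne1 and Ccne2 and their kinase gene Cdk2 differed by 0.03, -0.07 and 0.03, each with overlapping groups.

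Among 3 CDK inhibitors 0 passed, and the 2 measured members of the Cip/Kip family lay in opposite directions. Cdkn1b, which encodes p27, was at 9.80, 9.86 and 9.97 in CD73+CD105+ arrays, against 9.55, 9.36 and 9.67 in CD73+CD105- arrays. The groups did not overlap, and the difference was 0.35 (SE 0.10, limma adjusted p = 0.131), the 1 cell cycle gene among the 14 with an unadjusted p under 0.05 that was higher. A dimmer Cdkn1b probe set differed by 0.11 with overlapping groups. Cdkn1c, which encodes p57, an inhibitor abundant in hypertrophic cartilage, was at 10.55, 10.48 and 10.62 in CD73+CD105+ arrays, against 10.80, 10.66 and 10.89 in CD73+CD105- arrays. These groups were separated downwards (difference -0.23, SE 0.09, limma adjusted p = 0.22). Cdkn2c, which encodes p18, an inhibitor of Cdk4 and Cdk6, had levels of 8.12, 8.31 and 8.27 against 8.48, 8.46 and 8.22 in the same order and overlapped (difference -0.16, limma adjusted p = 0.454).

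The pocket protein genes lay on both sides of 0. Rbl1 encodes p107, which is itself made in cycling cells. It was at 6.51, 6.63 and 6.94 in CD73+CD105+ arrays, against 7.33, 7.13 and 7.22 in CD73+CD105- arrays. The difference of -0.53 (SE 0.12, limma adjusted p = 0.0832) amounted to 1.44-fold less in CD73+CD105+ cells, with no overlap. Rbl2, which encodes p130, the pocket protein of resting cells, was at 8.67, 8.48 and 8.66 in CD73+CD105+ arrays, against 8.41, 8.46 and 8.43 in CD73+CD105- arrays. All CD73+CD105+ arrays were the higher ones, with 0.02 between the nearest arrays, and the difference was 0.17 (SE 0.08, limma adjusted p = 0.299). Rb1 differed by 0.04 and E2f1 by 0.06, at 6.32, 6.44 and 6.15 in CD73+CD105+ arrays, against 6.19, 6.20 and 6.34 in CD73+CD105- arrays for E2f1.

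Other genes of the pathway were taken from 7 lists of 116 genes that hold none of the 45. These lists were chosen with earlier results of these data known. They gave 2 calls among 115 measured, both lower in CD73+CD105+ cells and both in the spindle and cytokinesis list. Over all genes 1.82% were called in either direction and 0.466% lower. The share called was near the first of these and above the second, and it rests on 2 genes. Of the 18 genes of the spindle and cytokinesis list, 17 lay below 0 (median -0.31). Kif4, a chromokinesin of the anaphase spindle, fell to 7.31 ± 0.21 in CD73+CD105+ cells, against 8.12 ± 0.04 in CD73+CD105- cells (SD, n = 3 each; difference -0.81, limma adjusted p = 0.0191). Kif11, the motor that pushes spindle poles apart, fell by 0.58 (limma adjusted p = 0.0456). Neither passed with a batch term for replicate 1 or in replicates 2 and 3 alone. With the replicate number as a block Kif4 passed (0.0421) and Kif11 did not (0.0693), nor did Kif11 with arrays centred on their medians (0.069). With 1 array left out, Kif4 passed only without CD73+CD105+ replicate 2 and otherwise had a limma adjusted p of 0.0517 to 0.08, while Kif11 passed only without CD73+CD105+ replicate 3 (0.048) and otherwise had 0.0824 to 0.166.

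Of 20 genes of the kinetochore and chromosome segregation list 19 lay below 0 (median -0.26) and 0 passed, with Zwilch, a kinetochore protein, at -0.69 and both of its group means under the receptor gene level, and Cdca3, a trigger of mitotic entry, at -0.47. All 8 condensin genes lay below 0 (median -0.30) and 0 passed, with Ncapg at -0.52 and Ncaph at -0.46. Of 24 genes of the replication fork and nucleotide supply 20 lay below 0 (median -0.16) and 0 passed. In this list Uhrf1, which carries DNA methylation across replication, was at -0.52 and Pole2, a subunit of DNA polymerase epsilon, at -0.43, just short of the threshold. Of 15 genes of origin licensing and firing 11 lay above 0 (median 0.10, and 0.026 in replicates 2 and 3 alone) and 0 passed. There Gins3, a helicase subunit, stood at 0.48 with groups separated upwards. The firing kinase gene Cdc7 was at 0.37, with overlapping groups and both of its group means under the receptor gene level.

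Of 18 genes of G1 control and the E2F family 10 lay below 0 (median -0.01) and 0 passed, with E2f8 at -0.41 and Myc at -0.23. Of 12 genes linked to withdrawal from the cycle 7 lay below 0 (median -0.02) and 0 passed. In this list 3 genes were separated upwards and 1 downwards, where 10.7% and 12.9% of all genes were. The 2 largest differences were those of Ccng2, a cyclin of arrested cells, and Gas6, a ligand named for growth arrest. Both were at 0.52 with groups separated upwards, and the lowest difference in the list was -0.35. Differences between lists were not tested.

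The arrays did not share the pattern evenly. CD73+CD105- replicate 2 was the highest of the 6 arrays in 21 of 43 cell cycle genes, among them 8 of 13 mitosis genes and 7 of 12 S phase genes, where it was highest in 18.1% of all genes. Relative to each gene's mean over 6 arrays, the mitosis genes averaged -0.11, -0.09 and -0.16 in CD73+CD105+ replicates 1, 2 and 3, and 0.00481, 0.27 and 0.09 in CD73+CD105- replicates 1, 2 and 3. CD73+CD105+ arrays lay close together and below all CD73+CD105- arrays in this average.

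The same array was at an extreme for markers of other cells. CD73+CD105- replicate 2 was the highest array in 8 of 8 chondrocyte markers and the lowest in 6 of 6 fibroblast and tendon markers, and CD73+CD105+ replicate 3 was the lowest in 8 of 8 and the highest in 6 of 6. The chondrocyte markers averaged -0.07, 0.03 and -0.34 in CD73+CD105+ arrays, against 0.09, 0.27 and 0.01 in CD73+CD105- replicates 1, 2 and 3, relative to each gene's mean. All 8 differences of chondrocyte markers lay below 0 and 0 passed (median -0.24). Fibroblast and tendon markers had array means of 10.02 to 10.33 in CD73+CD105+ and 9.30 to 9.89 in CD73+CD105- cells, with 6 of 6 above 0 and 0 passed. Of 5 erythroid markers measured 0 passed, their array means were 6.75 to 6.94 in CD73+CD105+ cells and somewhat higher, up to 7.11, in CD73+CD105- cells, and Klf1 and Alas2 were under the receptor gene level in both. Tfrc, the transferrin receptor of that list, which many dividing cells carry, differed by -0.62 and did not pass. Klf1, Epor, Alas2 and Slc4a1 differed by -0.01, -0.11, -0.15 and -0.03 with overlapping groups, so Tfrc made up most of the gap in the erythroid array means. Of 4 osteoblast and 4 megakaryocyte markers measured 0 passed. The part of any of these cell types, the endothelial cells and Lepr-expressing stroma included, in the cell cycle differences was not tested.

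**Figure D4:**
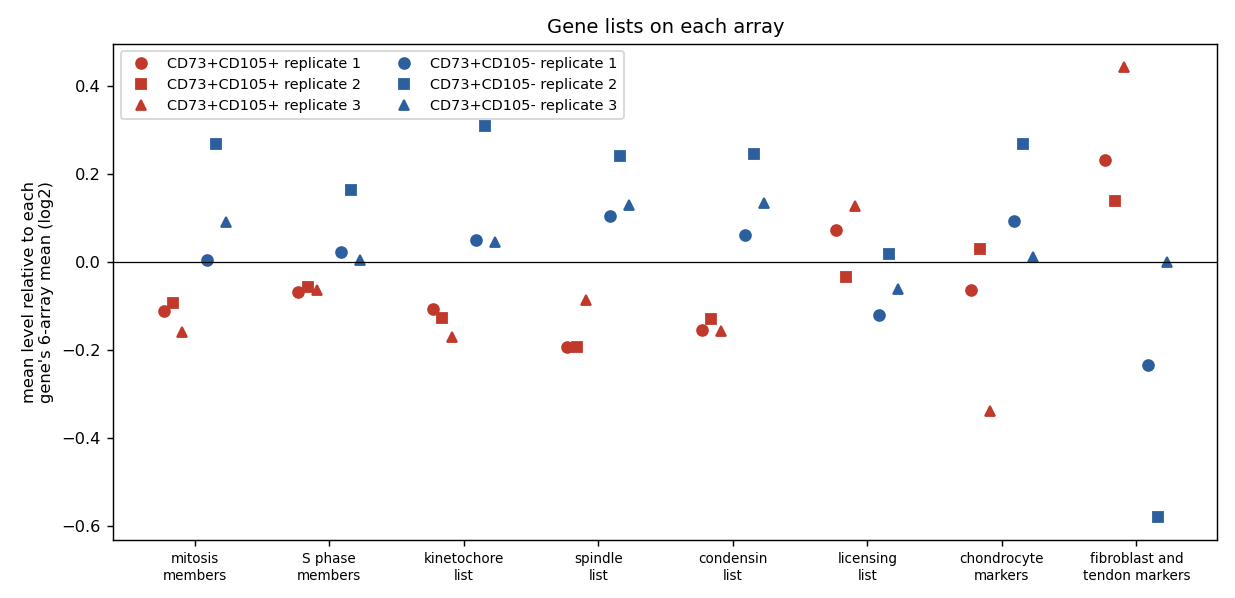
Mean level of each gene list on each array, relative to each gene's mean over the 6 arrays (vertical axis, log2), CD73+CD105+ arrays left of CD73+CD105- arrays within each list. CD73+CD105- replicate 2 is the highest array for mitosis (0.27), S phase (0.16) and chondrocyte (0.27) genes and the lowest for fibroblast and tendon genes (-0.58).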

How the data were processed

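Biotin-labelled total RNA of sorted mouse marrow cells was measured on 6 arrays of 1 colour. The deposited log2 values per probe set were made by the authors with RMA (background correction, quantile normalization, probe summary), per the submitters' processing notes, with no version or probe annotation given there. RMA compresses differences near background, and scanner files were not used here. Of 35556 probe sets, 21789 had 1 symbol in GEO's platform annotation, 1621 several and 12146 none here; 21698 were matched to RefSeq by Entrez ID and 0 symbols changed. Of several probe sets per gene the one with the highest mean was used.

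Differences were tested with limma 3.58.1 in R 4.3.3 (lmFit, eBayes, no block), adjusted by Benjamini-Hochberg over 19938 genes with a threshold of 0.05; the fit was tested on simulated data. SE and 95% intervals are moderated, and the median SE of 0.0928 shows what 3 arrays a group allow. The genes, lists and settings were chosen with earlier results of these data known. Values per array were given for the 3 genes of each role with the largest difference, and for others named after their values were seen; of each pathway list the genes past the threshold or the 2 with the largest difference were named. Same-numbered arrays did not all deviate together (r = -0.883, 0.00659 and 0.104), so the numbers were not used as pairs; the replicate 1 arrays are tied to each other, in opposite directions. The 15 other settings covered scaling, block, batch, left-out arrays, weights, probe sets and dim genes. Motifs were counted in RefSeq windows (GRCm38.p6); the arrays' values carry no coordinates.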

Additional observations from a re-analysis of the deposited data

How the results depend on the processing

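Of the 43 cell cycle genes, 31 kept the sign of their difference under all 15 other settings, and 12, each within 0.162 of 0, turned under at least 1; the cause was not tested. The count of cell cycle genes past the threshold was 0 as reported. It was 1 with the arrays quantile normalized again and 1 with an intensity trend (Top2a in both), 1 with the replicate block (Cdk6), 2 among genes above the receptor gene level (Bub1b and Top2a; fewer genes are tested there), 8 with array weights, 0 in the other settings with all arrays or in replicates 2 and 3, and 0 to 1 with 1 array left out (Cdk6 without CD73+CD105+ replicate 2, Rbl1 without CD73+CD105+ replicate 3). Over all genes 363 passed, 215 with the replicate block, 101 with a batch term for replicate 1, 29 in replicates 2 and 3 alone, 1331 with array weights (largest for CD73+CD105+ replicate 1, at 2.44) and 86 to 293 with 1 array left out. The labels state no pairing behind the replicate numbers. The median of the mitosis genes was -0.42 in replicates 2 and 3, -0.18 with array weights, -0.19 over the mean of all probe sets, and -0.44 (without CD73+CD105- replicate 1) to -0.15 (without CD73+CD105- replicate 2) with 1 array left out. With 1 array left out, the median of the S phase and replication genes ranged from -0.16 to -0.094. That of the A and B cyclins and Cdk1 ranged from -0.33 to -0.15, and that of the D and E cyclins from -0.11 to 0.068. The ranges were -0.19 to -0.099 for the CDK inhibitors and 0.0052 to 0.12 for E2f1 and the pocket proteins. The order of the roles by median was thus not fixed.

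Signs turned as follows. In replicates 2 and 3 alone Ccna2 was at 0.033, Aurka at -0.00413 and Rb1 at -0.060. With arrays centred on their medians Ccnd1 was at 0.00477. With array weights Pcna was at 0.00656, Cdc45 at 0.073, Ccnd1 at 0.031, Ccne1 at -0.16 and Ccne2 at 0.17. With 1 array left out the difference ranged from -0.00826 to 0.14 for E2f1, -0.038 to 0.018 for Pcna, -0.011 to 0.12 for Cdc6, -0.18 to 0.068 for Cdc45, -0.26 to 0.040 for Birc5, -0.11 to 0.10 for Ccnd1, -0.17 to 0.14 for Ccne1, -0.28 to 0.087 for Ccne2, -0.10 to 0.18 for Cdk2 and -0.024 to 0.12 for Rb1. Dim genes are limited by background, since RMA compresses their differences.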
